A study of Rattus norvegicus with 12 samples.

Results

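Mki67, Cdk1, Ccnd1 and Cdkn1a, genes of the cell division cycle, were read from an RNA-seq table of rat retinas that lists 32883 Ensembl genes. They were taken by identifier, Mki67 as ENSRNOG00000028137, Cdk1 as ENSRNOG00000000632, Ccnd1 as ENSRNOG00000020918 and Cdkn1a as ENSRNOG00000000521, and all 4 rows were present. The table gives identifiers without symbols and the RefSeq annotation used here holds 0 Ensembl identifiers, so the pairing of identifier and symbol was not checked against a file. RefSeq (build GRCr8) holds all 4 symbols as protein-coding genes. It places Mki67 at chr1:199926150-199952847, Ccnd1 at chr1:209518288-209527986, Cdkn1a at chr20:7150820-7161373 and Cdk1 at chr20:19265252-19280456.

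The 12 libraries came from retinas taken at postnatal day 18 from Sprague Dawley rats of wild-type genotype. There were 4 groups of 3 libraries: sham controls given a scrambled RNA, sham controls given a mimic of the microRNA miR-143, animals with oxygen-induced retinopathy (OIR) given the scrambled RNA, and animals with OIR given the mimic. In OIR, newborn rodents are kept in altered oxygen, retinal vessels stop growing, and abnormal vessels sprout later. A mimic is a made RNA duplex that works in the place of the natural microRNA. By its title, the series asks what miR-143 does in retinopathy caused by ischaemia. Every library came from an injected animal, so no group shows the retina without an injected RNA, and the sources used here give neither the route nor the dose. Nothing in the labels ties each library to its own animal. P-values therefore cover only the variation among the 12 libraries, which may be technical.

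Levels are in TPM, reads per base of gene scaled to the same total in each library, and 10537600 to 13175005 reads per library lay on genes. OIR scrambled replicate 3 was the highest of the 12 libraries for Mki67, Cdk1 and Ccnd1, and was set apart by the gap check below for Ccnd1 only. Its record, like that of OIR mimic replicate 1, lacks the tags for disease and injection, so both libraries were grouped by title. The column names carry the letter R in every scrambled and L in every mimic library, and numbers that are lower in every sham than in every OIR library. The sources used here do not say what these marks stand for, and letter and injection, or number and OIR, cannot be told apart. One number occurs on both an L and an R column, those of replicate 1 of each sham group. Retinal cell type markers could not be checked because the table has no symbols.

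Cells divide when cyclins switch on their partner kinases. Cyclin D1, encoded by Ccnd1, drives cells out of rest into the cycle in response to growth signals, and Cdk1, the kinase of mitosis, is made in cells that approach division. Mki67 encodes the nuclear protein that is widely stained to mark cycling cells. Cdkn1a encodes p21, an inhibitor of cyclin-dependent kinases that p53 and other stress signals induce. In the retina most neurons have left the cycle by the time the eyes open, while glia, vessel cells and immune cells can still divide.

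The injected agent mimics miR-143. The labels do not name the arm or give the sequence of the mimic, and the rat mature sequences from RefSeq (GRCr8, chromosome 18) are shown for orientation with the seed, bases 2 to 8, in capitals.
rno-miR-143-3p: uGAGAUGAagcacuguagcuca
rno-miR-143-5p: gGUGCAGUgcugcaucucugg

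Promoter sequences from RefSeq (GRCr8) were present for 3 of the 4 genes, Mki67, Cdk1 and Cdkn1a. They are shown because Mki67 and Cdk1 belong to the genes made in late cell cycle stages, whose promoters are known for CCAAT boxes and for the letters TTTGAA of the cell cycle homology region. Each run is the 250 bases before the start of 1 annotated transcript, on the gene's own strand, with matches to the motifs in capitals. The gene record reaches 254 bases further upstream than that start for Mki67, 41 bases for Cdk1 and 112 bases for Cdkn1a. The windows are chr1:199952594-199952843 (minus strand), chr20:19265043-19265292 (plus strand) and chr20:7150682-7150931 (plus strand).
Mki67: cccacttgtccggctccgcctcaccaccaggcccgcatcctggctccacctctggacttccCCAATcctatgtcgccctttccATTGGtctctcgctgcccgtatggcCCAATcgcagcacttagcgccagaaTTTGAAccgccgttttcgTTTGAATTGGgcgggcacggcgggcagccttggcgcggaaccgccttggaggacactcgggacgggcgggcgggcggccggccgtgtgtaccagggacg
Cdk1: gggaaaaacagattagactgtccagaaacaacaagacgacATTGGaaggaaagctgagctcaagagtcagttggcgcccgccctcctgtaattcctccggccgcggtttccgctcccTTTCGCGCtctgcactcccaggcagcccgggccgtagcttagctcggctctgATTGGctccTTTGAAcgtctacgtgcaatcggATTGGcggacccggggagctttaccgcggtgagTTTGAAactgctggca
Cdkn1a: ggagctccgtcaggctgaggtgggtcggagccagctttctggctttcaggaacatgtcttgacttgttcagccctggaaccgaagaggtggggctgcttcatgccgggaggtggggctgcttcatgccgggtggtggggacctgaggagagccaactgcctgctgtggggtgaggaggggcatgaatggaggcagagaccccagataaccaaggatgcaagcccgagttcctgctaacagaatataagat

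Both strands were searched for CCAAT, the box bound by the factor NF-Y, and for the letters TTTGAA. They were also searched for TTTCGCGC, a form of the site of E2F factors. Another E2F form searched was TTTGGCGC. CCAAT matched 4 times in the Mki67 window and 3 times in the Cdk1 window, and TTTGAA matched 2 times in each. In Mki67 the second TTTGAA overlaps a CCAAT match on the other strand. TTTCGCGC matched 1 time, in Cdk1, and TTTGGCGC in none of the 3. The Cdkn1a window held 0 matches to the 4 motifs. Of 33469 rat promoter windows of 300 bases, 37.5% held CCAAT, 18.3% held TTTGAA, 7.41% held both, 0.326% held TTTCGCGC and 0.493% held TTTGGCGC. TTTGAA occurred 2 or more times in 2.51% of windows. These matches describe letters and are not evidence of binding.

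In sham retinas the 4 genes spanned a wide range of levels. Mean levels over the 6 sham libraries were 0.908 ± 0.256 TPM for Mki67, 4.48 ± 0.696 TPM for Cdk1, 13.3 ± 1.92 TPM for Ccnd1 and 19.2 ± 1.78 TPM for Cdkn1a (SD, n = 6). The order was therefore Mki67, Cdk1, Ccnd1 and Cdkn1a, with no overlap between neighbours except that the highest Ccnd1 value (17.2 TPM) lay just above the lowest Cdkn1a value (17.0 TPM). In OIR the mean of Ccnd1, 27.2 ± 8.82 TPM, lay above that of Cdkn1a, 18.9 ± 3.21 TPM (SD, n = 6), and their ranges overlapped. Over all 12 libraries Mki67 lay above 6.47% of the 15916 genes tested, Cdk1 above 26.1%, Cdkn1a above 48.2% and Ccnd1 above 49.8%.

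**Figure D1:**
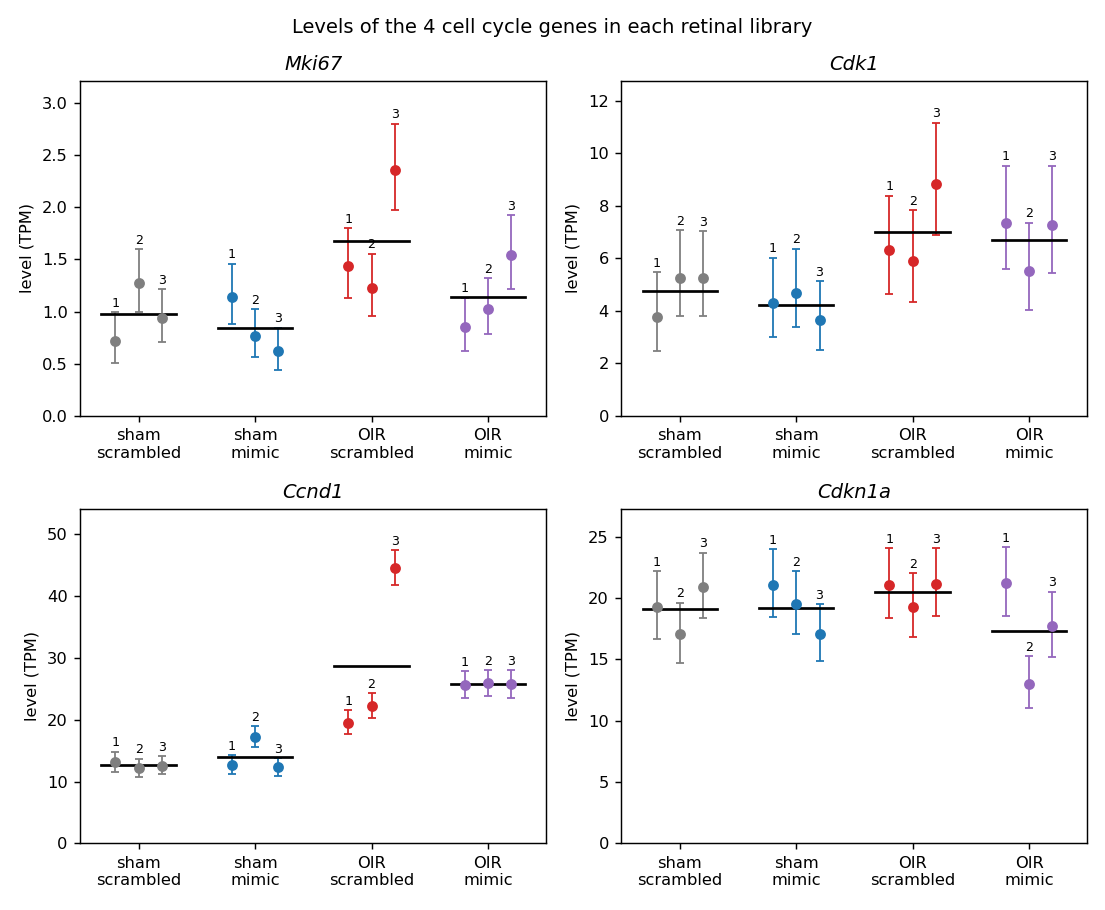
Level of each gene in TPM (vertical axis, from 0) in each of the 12 libraries, by group; points are libraries with their replicate number, vertical bars the exact Poisson 95% interval of the reads, and horizontal lines the group means. Ccnd1 and Cdk1 lie higher in each of the 6 OIR libraries than in each of the 6 sham libraries, while Mki67 and Cdkn1a overlap.

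Ccnd1, the cyclin of entry into the cycle, showed the clearest difference. The sham scrambled libraries stood at 13.1, 12.2 and 12.6 TPM and the OIR scrambled libraries at 19.5, 22.2 and 44.5 TPM, in the order of replicates 1 to 3. With the mimic, the sham libraries stood at 12.6, 17.2 and 12.3 TPM and the OIR libraries at 25.6, 25.9 and 25.7 TPM. Every OIR library was higher than every sham library, and OIR scrambled replicate 3 was far above the other 5.

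Averaged over both injections, Ccnd1 rose in OIR by 0.94 on the log2(TPM + 1) scale (SE 0.17, limma adjusted p 0.00167). The mean TPM was 2.04 times that of sham, and the absolute log2 fold change was larger than that of 96.5% of the genes tested. Ccnd1 was called (adjusted p below 0.05) with each library left out in turn and under the other settings run. Without OIR scrambled replicate 3 the log2 fold change was 0.76 (SE 0.09, limma adjusted p 0.000237).

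Within each injection the Ccnd1 difference was also called, less firmly. With scrambled RNA the log2 fold change was 1.03 (SE 0.24, limma adjusted p 0.0201), and it was 0.68 (limma adjusted p 0.0172) without OIR scrambled replicate 3. The call was lost without sham scrambled replicate 1, 2 or 3 (limma adjusted p 0.0535, 0.0661 and 0.0534), where the log2 fold change was 1.06, 1.01 and 1.03. With the mimic it was 0.84 (SE 0.24, limma adjusted p 0.0288), a call lost without sham mimic replicate 1 or 3 (0.0853 and 0.0979) or OIR mimic replicate 1, 2 or 3 (0.0639, 0.067 and 0.068), at log2 fold changes of 0.76 to 0.85. In these fits the group with a library left out has 2 libraries. The call with the mimic held in 7 of the 12 fits with 1 library left out, with a limma adjusted p of 0.00105 at the lowest. Each SE draws on the spread within all 4 groups, also those outside the comparison.

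Cdk1, the mitotic kinase, was higher in OIR at a lower level of expression. Sham scrambled libraries stood at 3.76, 5.25 and 5.23 TPM and OIR scrambled libraries at 6.30, 5.90 and 8.83 TPM. With the mimic the sham libraries stood at 4.31, 4.69 and 3.65 TPM and the OIR libraries at 7.36, 5.51 and 7.27 TPM. The lowest OIR value, 5.51 TPM, lay above the highest sham value, 5.25 TPM, by little. These levels rest on 27 to 44 reads per library in sham and 46 to 70 in OIR, and the exact Poisson 95% interval of that lowest OIR library ran from 4.03 to 7.35 TPM. Such intervals cover counting error only.

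Averaged over both injections, Cdk1 rose in OIR by 0.52 on the log2(TPM + 1) scale (SE 0.13, limma adjusted p 0.0090), and its mean TPM was 1.53 times that of sham. It was called with each library left out in turn (limma adjusted p 0.00625 to 0.0257) and under the other settings run. Without OIR scrambled replicate 3 the log2 fold change was 0.44 (limma adjusted p 0.0195).

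Within 1 injection the evidence for Cdk1 was weaker. With scrambled RNA the log2 fold change was 0.47 (SE 0.18) and missed the threshold (limma adjusted p 0.114), and without OIR scrambled replicate 3 it was 0.32 (adjusted p 0.357). With the mimic it was 0.56 (SE 0.18) and passed narrowly (limma adjusted p 0.0464). That call held without sham scrambled replicate 1, OIR scrambled replicate 3 or OIR mimic replicate 2 (limma adjusted p 0.0402, 0.0289 and 0.0329). It was lost without each of the other 9 libraries. Scrambled libraries have no part in this log2 fold change, which stayed 0.56 when 1 of them was left out. Only the estimated spread and the adjustment moved then. The limma adjusted p was 0.0604 and 0.0551 without sham scrambled replicates 2 and 3, and 0.0891, 0.0707 and 0.153 without sham mimic replicates 1, 2 and 3. It was 0.058 and 0.0513 without OIR scrambled replicates 1 and 2, and 0.126 and 0.129 without OIR mimic replicates 1 and 3. The log2 fold change in the 12 fits lay between 0.48 and 0.68.

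Mki67, the marker of cycling cells, was the least abundant of the 4 and the least certain. Sham scrambled libraries stood at 0.717, 1.27 and 0.934 TPM and OIR scrambled libraries at 1.44, 1.23 and 2.36 TPM. With the mimic the sham libraries stood at 1.14, 0.767 and 0.617 TPM and the OIR libraries at 0.848, 1.03 and 1.54 TPM. Only 3 of the 6 OIR libraries lay above each sham library, namely OIR scrambled replicates 1 and 3 and OIR mimic replicate 3.

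The averaged OIR difference of Mki67 was 0.32 (SE 0.16) on the log2(TPM + 1) scale with a 95% interval of -0.04 to 0.68, and it did not pass the test (limma adjusted p 0.167). The mean TPM was 1.55 times that of sham, close to the ratio of Cdk1. Unlike those of Cdk1, the ranges overlapped, and the OIR mean includes OIR scrambled replicate 3 at 2.36 TPM. Near 1 TPM the added 1 understates a fold change. With limma voom on the recovered reads, 36 to 131 per library over a length of 9880 bases, the log2 fold change was 0.60 (SE 0.22, limma adjusted p 0.0546). With a pseudocount of 0.1 it was 0.55 (limma adjusted p 0.168). After quantile normalisation it was lower, 0.20 (limma adjusted p 0.355). Mki67 passed the filter of 1 TPM in 3 libraries through 5 OIR and 2 sham libraries, and without a filter the limma adjusted p was 0.16. With scrambled RNA the log2 fold change was 0.42 (SE 0.23, limma adjusted p 0.277), 0.25 without OIR scrambled replicate 3, and with the mimic 0.21 (SE 0.23, limma adjusted p 0.578), which was 0.082 without OIR mimic replicate 3.

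Cdkn1a, the inhibitor, showed no detected difference. Sham scrambled libraries stood at 19.3, 17.0 and 20.9 TPM and OIR scrambled libraries at 21.1, 19.3 and 21.2 TPM. With the mimic the sham libraries stood at 21.1, 19.5 and 17.1 TPM and the OIR libraries at 21.2, 13.0 and 17.7 TPM. The ranges overlapped in every pair of groups, and OIR mimic replicate 2 was the lowest of the 12.

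Averaged over both injections the Cdkn1a difference was -0.03 (SE 0.11, limma adjusted p 0.858), with a 95% interval of -0.26 to 0.20 on the log2 scale. The interval does not reach the averaged log2 fold changes estimated for Ccnd1 or Cdk1. Within scrambled RNA the difference was 0.10 (SE 0.15, limma adjusted p 0.717) and within the mimic -0.16 (SE 0.15, limma adjusted p 0.498). The sign of the averaged difference was positive in some fits with libraries left out, at most 0.06.

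**Figure D2:**
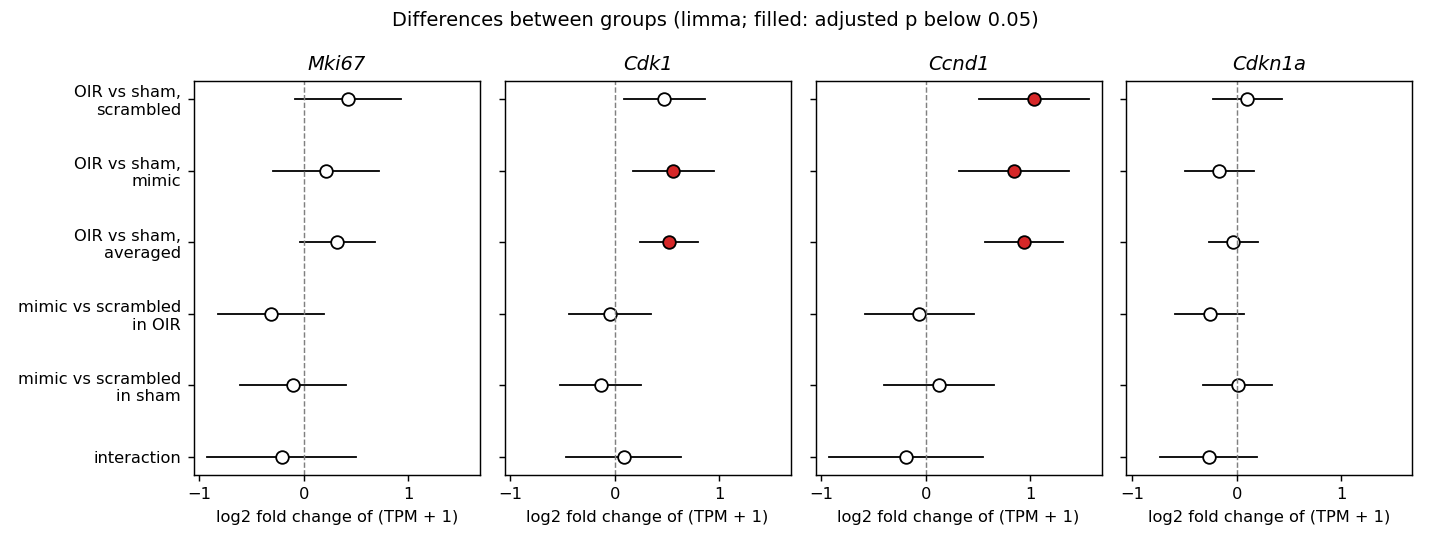
Log2 fold change on the log2(TPM + 1) scale (horizontal axis) for each gene and each of the 6 comparisons, with limma's unadjusted 95% interval; filled points passed an adjusted p of 0.05. The filled points are all 3 OIR comparisons of Ccnd1, and those of Cdk1 with the mimic and averaged over injections.

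These counts need the share over all genes beside them. In the averaged comparison 2 of the 4 genes were called, each higher in OIR, while 30.2% of the 15916 genes tested were called and 17.5% were called higher. With scrambled RNA 1 of 4 was called, higher, against 10.7% of all genes called and 6.79% called higher. With the mimic 2 of 4 were called, each higher, against 19.5% and 9.76%. For 2 of the 4 genes each OIR library exceeded each sham library, as for 9.78% of genes tested. The same genes, Ccnd1 and Cdk1, also did not overlap within scrambled RNA, where 19.7% of genes were higher in each OIR library, and within the mimic, where 20.1% were. Calls in OIR were thus common, and 4 genes are too few to compare their share with these values. The median averaged log2 fold change was 0.04 over all genes tested. In whole retina, a change in the number of cells that make a transcript and a change in its amount per cell cannot be told apart.

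**Figure D3:**
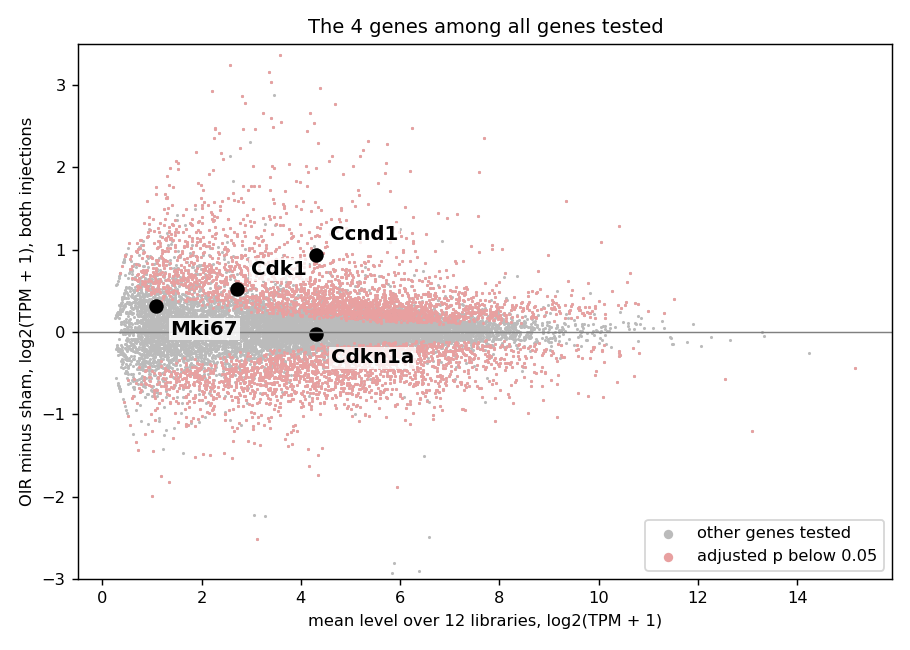
Averaged OIR minus sham difference on the log2(TPM + 1) scale (vertical axis) against mean level (horizontal axis, log2(TPM + 1)) for the genes tested, with genes past an adjusted p of 0.05 in pink and the 4 genes in black; 5 genes lie outside the plotted range. Ccnd1 (0.94) and Cdkn1a (-0.03) have like mean levels and lie in the upper part and near the centre of the cloud.

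The mimic was compared with scrambled RNA next. None of the 4 genes was called in OIR or in sham, nor were any of all genes tested (0% called by limma in each). By limma voom from recovered reads 0 genes were called too. In OIR the count of all genes called was not 0 in each setting: leaving out OIR mimic replicate 1 gave 25, and leaving out both libraries that lack tags gave 28, none of the 4 among them. In the other settings, and in sham and for the interaction in each setting, it was 0 to 2. Of the 15916 genes tested, the unadjusted limma p was below 0.05 for 1491 in OIR, 333 in sham and 589 for the interaction. None of the 4 was among them. In OIR the log2 fold change with the mimic was -0.31 for Mki67 (95% interval -0.82 to 0.19), -0.26 for Cdkn1a (-0.59 to 0.07), -0.06 for Ccnd1 (-0.58 to 0.46) and -0.05 for Cdk1 (-0.44 to 0.34). Limma adjusted p ranged from 0.627 to 0.959. In sham the values were -0.10 for Mki67 (-0.61 to 0.40), -0.13 for Cdk1 (-0.52 to 0.25), 0.13 for Ccnd1 (-0.39 to 0.65) and 0.01 for Cdkn1a (-0.32 to 0.34), each with a limma adjusted p of 1.0. Each interval uses 1 spread per gene shared by the 4 groups. On that basis the intervals exclude a change of 1 on the log2(TPM + 1) scale in each case, but not all smaller ones. For Ccnd1 the groups differed in spread (SD 13.7 TPM in OIR scrambled and 0.124 TPM in OIR mimic, n = 3 each). Its interval in OIR therefore does not firmly exclude a change of 1. For Mki67, near 1 TPM, the added 1 shrinks changes, so its intervals do not exclude a log2 fold change of 1 in TPM. Its value in OIR was -0.51 (SE 0.40) with a pseudocount of 0.1 and -0.53 (SE 0.29) with limma voom.

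Single libraries decided the sign or size of some of these mimic values. Without OIR scrambled replicate 3 the mimic value in OIR became 0.29 for Ccnd1 and 0.11 for Cdk1, and it was -0.14 for Mki67. Without both libraries lacking tags that of Mki67 was -0.040. The value of Cdkn1a in OIR was -0.08 without OIR mimic replicate 2. The interaction, which asks whether the OIR difference itself differed between injections, was -0.21 for Mki67, 0.09 for Cdk1, -0.19 for Ccnd1 and -0.27 for Cdkn1a (limma adjusted p 1.0 each, 0% of genes called). That of Mki67 was -0.037 without OIR scrambled replicate 3. The 95% intervals of the interaction reached from -0.93 to 0.50 for Mki67 and from -0.93 to 0.55 for Ccnd1. They do not exclude a difference of moderate size between injections.

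The spread between libraries of a group was set against counting error. The chi-square per degree of freedom of the recovered reads within groups, which is near 1 where counting error is the whole spread, was 1.43 for Cdk1, 3.40 for Cdkn1a, 6.71 for Mki67 and 39.0 for Ccnd1 (8 degrees of freedom). The median was 1.83 over 1337 genes with reads like Cdk1, 1.96 over 1508 like Mki67, 2.41 over 2497 like Cdkn1a and 3.00 over 3167 like Ccnd1. Ccnd1 was thus far more spread than genes of like depth. Its spread differed between groups. The SD was 13.7 TPM in OIR scrambled, 2.73 TPM in sham mimic, 0.461 TPM in sham scrambled and 0.124 TPM in OIR mimic (n = 3 each). In OIR mimic the 3 values differed by less than the counting interval of 1 library, 23.5 to 27.9 TPM for replicate 1.

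OIR scrambled replicate 3 was the highest of the 12 libraries for Mki67, Cdk1 and Ccnd1 and the second highest for Cdkn1a. Sham mimic replicate 3 was the lowest of the 12 for Mki67 and Cdk1. The order of libraries was not shared throughout: OIR mimic replicate 1 was the second highest for Cdk1 and the ninth of 12 for Mki67. OIR mimic replicate 2 was the second highest for Ccnd1 and the lowest for Cdkn1a.

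Ratios of 2 genes within a library do not depend on how libraries are scaled, and are given without a test because they were chosen after the values were seen. The ratio of Ccnd1 to Cdkn1a in TPM lay between 0.599 and 0.880 in the 6 sham libraries and between 0.927 and 2.10 in the 6 OIR libraries, without overlap. The ratio of Cdk1 to Cdkn1a lay between 0.195 and 0.308 in sham and between 0.299 and 0.424 in OIR, where sham scrambled replicate 2 reached into the OIR range. The ratio of Mki67 to Cdk1 had means of 0.201 ± 0.042 in sham and 0.203 ± 0.051 in OIR (SD, n = 6) and overlapped widely. The ratios of Mki67 to Ccnd1, Mki67 to Cdkn1a and Cdk1 to Ccnd1 overlapped too. Ccnd1 alone already separated the 6 OIR from the 6 sham libraries, with each OIR library higher, as for 9.78% of genes tested. The share of all gene pairs whose ratio separates the conditions was not computed.

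**Figure D4:**
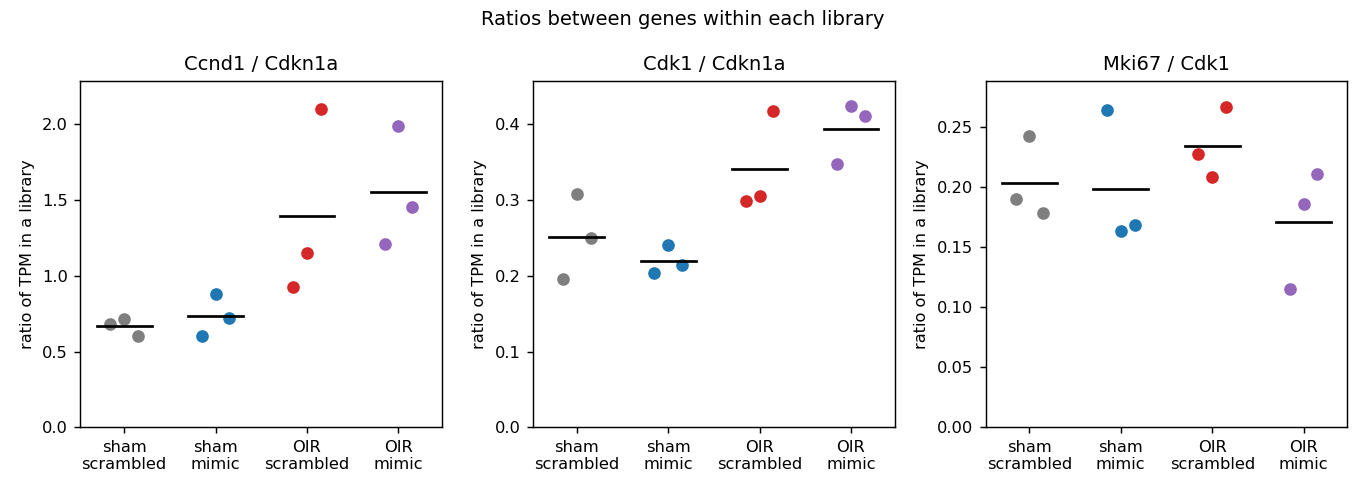
Ratio of the TPM of 2 genes within each library (vertical axes, from 0) by group; points are libraries and lines group means. The ratio of Ccnd1 to Cdkn1a separates sham (at most 0.880) from OIR (at least 0.927), as Ccnd1 alone does. The ratio of Mki67 to Cdk1 does not separate them.

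Likeness of pattern was measured as Pearson's r of log2(TPM + 1) over the 12 libraries, which share the OIR difference and the groups, and is a description. Cdk1 and Ccnd1 had an r of 0.865, Mki67 and Cdk1 0.778, and Mki67 and Ccnd1 0.674. With Cdkn1a the values were 0.209 for Cdk1, 0.189 for Mki67 and -0.00255 for Ccnd1. Among 15915 other genes, Cdk1 was of rank 166 in likeness to Mki67, and Mki67 of rank 1432 in likeness to Cdk1. Ccnd1 was of rank 510 in likeness to Cdk1, and Cdk1 of rank 771 in likeness to Ccnd1. Ccnd1 was of rank 890 in likeness to Mki67, and Mki67 of rank 2496 in likeness to Ccnd1. After subtraction of group means, r was 0.695 for Mki67 and Cdk1, 0.623 for Cdk1 and Ccnd1, 0.519 for Cdk1 and Cdkn1a and 0.505 for Mki67 and Ccnd1. It was 0.107 for Ccnd1 and Cdkn1a and 0.0735 for Mki67 and Cdkn1a.

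The gene most like Mki67 was ENSRNOG00000057236 (r = 0.921), which ranged from 0 to 2.05 TPM in sham and from 0 to 4.24 TPM in OIR. The gene most like Cdkn1a was ENSRNOG00000004819 (r = 0.916), at 53.4 to 62.6 TPM in sham and 41.8 to 62.1 TPM in OIR. On deviations from group means the most like genes were ENSRNOG00000012640 for Mki67 (r = 0.976) and ENSRNOG00000022288 for Cdkn1a (r = 0.945). The highest of 15915 correlations over 12 libraries is high by selection.

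**Figure D5:**
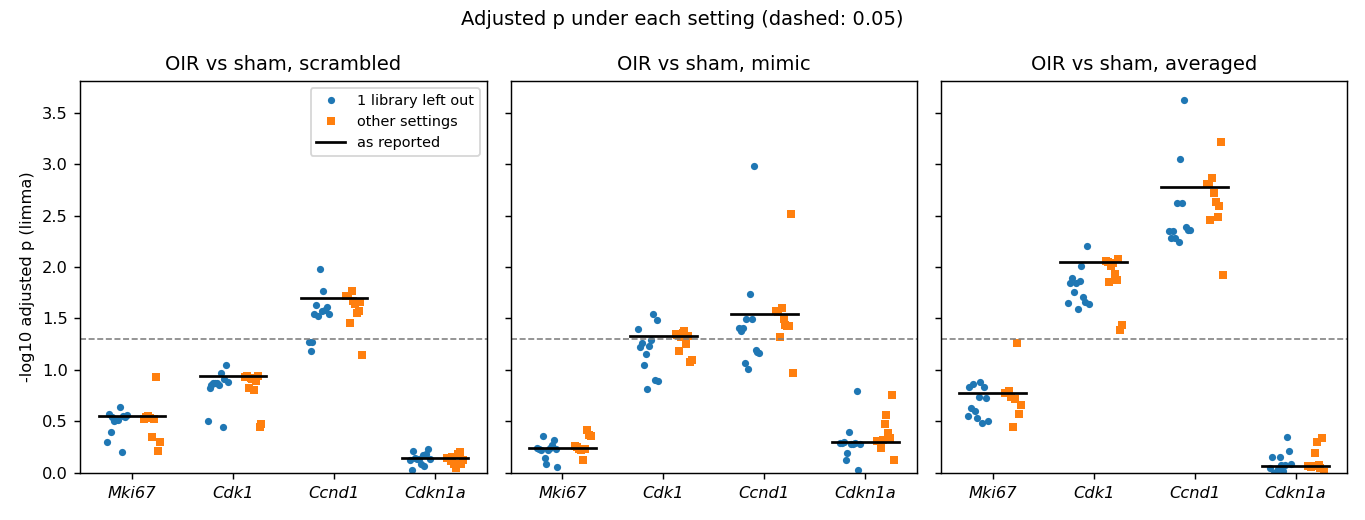
Limma adjusted p as -log10 (vertical axis) for each gene in the 3 OIR comparisons; black lines are the values as reported, circles fits with 1 library left out, squares the other settings, and the dashed line marks 0.05. Ccnd1 and Cdk1 stay above the line in each averaged fit shown, and Mki67 and Cdkn1a stay below it in each fit of the 3 panels.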

How the data were processed

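RNA from dissected retinas was sequenced as single-end reads, per the labels' protocols, which also speak of miRNA libraries although the table lists genes. Per the submitters' processing notes FastQC, TopHat, Cufflinks and Cuffdiff and the build rn6 were used, with no roles or versions; the sources used here do not name the counting tool or annotation. Values are TPM as deposited by the authors; columns were assigned through the title lines above the table, and 0 were left unassigned.

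Genes with at least 1 TPM in at least 3 libraries (15916) were fitted as log2(TPM + 1) with limma 3.58.1 in R 4.3.3, 1 mean per group, 8 residual degrees of freedom, trend and robust options, and Benjamini-Hochberg adjustment over all genes tested. A gene is called at an adjusted p below 0.05. All 4 genes passed the filter. Reads were recovered from TPM as whole multiples of 1 read (tolerance 0.02), for 22310 of 22310 rows above 0. They gave depth, counting intervals and the voom alternative. Fit and recovery were tested on simulated data.

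The 4 genes, the motifs and the alternatives were chosen with earlier results of these data known. The rule named the 4 genes, and for Mki67 and Cdkn1a the most correlated gene. The wider cell cycle list and the retinal cell type markers, written as symbols, could not be used because the table gives identifiers only. Alternatives were other pseudocounts, filters and scalings, libraries left out, a replicate block and voom.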

Additional observations from a re-analysis of the deposited data

Results flagged for a closer look

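In each condition the 6 libraries were checked, for each of the 4 genes, for a highest or lowest value set apart from the rest by a gap, as a share of the whole range, above Dixon's 95% critical value. Of the 8 sets 2 passed it, where chance alone gives about 1 in 20. Ccnd1 in OIR scrambled replicate 3 stood at 44.5 TPM, a gap of 0.746 of the OIR range. Ccnd1 in sham mimic replicate 2 stood at 17.2 TPM, a gap of 0.817 of the sham range. Each was the highest library of its condition.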

How the results depend on the processing

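The 22 other settings gave 522 values for the 24 results (4 genes in 6 comparisons), of which 477 kept direction and side of the threshold, 23 lost the call and 22, none of them called, changed sign. No uncalled result became called. A filter of 5 TPM gave no value for Mki67. The averaged OIR calls of Ccnd1 and Cdk1 held in the 22 settings. In the averaged comparison 5281 genes were called by limma voom from recovered reads.

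Deviations from group means of same-numbered libraries correlated between -0.048 and 0.258, and 5 of 18 exceeded 0.1. Replicate numbers thus gave no pairing that held throughout. The highest value, 0.258, was between replicate 1 of each sham group, the libraries that share a column number. The main fit treats them as separate libraries. With the replicate block the OIR difference of Cdk1 with the mimic was 0.56 and lost its call (limma adjusted p 0.0564), and no other call changed. The same value, 0.56, lost it without a filter (adjusted p 0.0654). Without both libraries lacking condition tags it was 0.50 (adjusted p 0.0842). Without both sham libraries of the same column number the OIR differences were no longer called for Cdk1 with the mimic (0.57), Ccnd1 with the mimic (0.78) and Ccnd1 with scrambled RNA (1.06).

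With 1 library left out in turn, the OIR difference with the mimic ranged from 0.48 to 0.68 for Cdk1, from 0.76 to 0.99 for Ccnd1 and from -0.32 to 0.016 for Cdkn1a. That of Ccnd1 with scrambled RNA ranged from 0.68 to 1.25, and the averaged difference of Cdkn1a from -0.11 to 0.060. The mimic difference in sham ranged from -0.21 to 0.0052 for Mki67, from -0.016 to 0.21 for Ccnd1 and from -0.064 to 0.090 for Cdkn1a. In OIR it ranged from -0.15 to 0.11 for Cdk1, from -0.28 to 0.29 for Ccnd1, from -0.44 to -0.14 for Mki67 and from -0.41 to -0.08 for Cdkn1a. The interaction ranged from -0.012 to 0.24 for Cdk1, from -0.41 to 0.16 for Ccnd1, from -0.34 to -0.037 for Mki67 and from -0.42 to -0.09 for Cdkn1a.

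Other signs changed as follows. Quantile normalisation gave mimic differences in OIR of 0.062 for Cdk1 and 0.0074 for Ccnd1. Without both libraries lacking condition tags these were 0.048 and 0.30, and the interaction was 0.062 for Mki67 and 0.17 for Ccnd1. Without both sham libraries of the same column number Cdkn1a had an averaged OIR difference of 0.0072 and a mimic difference in sham of -0.046. The cause of these shifts was not tested. Depth was lowest for Cdk1 (27 to 70 reads per library) and Mki67 (36 to 131).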
